A study of Homo sapiens with 4 samples.

Results

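The genes described here are 52 genes of mitosis and chromosome segregation, taken by name from the 56271 rows of an RNA sequencing table of SKBR3 breast cancer cells. All 52 were in the table. They encode the kinases and cyclins of mitotic entry, the spindle checkpoint, the kinetochore, mitotic kinesins, cytokinesis factors and the condensin complex. The genes were grouped by function, with earlier results of these data known, and the rule that chose them used no measured value. Of the 52, 50 passed the filter on low levels and were tested among 12205 genes.

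SKBR3 is an established HER2-positive human breast cancer line. The question is how the transcriptome of these cells differs once VIRMA is overexpressed. VIRMA is a scaffold of the enzyme complex that deposits N6-methyladenosine on RNA. Poly-A-enriched RNA from 2 eGFP control libraries and 2 VIRMA-overexpressing libraries was sequenced with a stranded kit. Control cells carried a lentiviral vector that expresses eGFP from the human ubiquitin C promoter. VIRMA-overexpressing cells carried the same kind of vector with HA-tagged, full-length VIRMA joined to eGFP by a p2A peptide. In both groups eGFP-positive cells were sorted and expanded as pools, so an effect of VIRMA and a difference between the pools cannot be told apart. The labels give every library the same culture text, that of a protein experiment under low oxygen, whereas the methods name no culture condition for RNA sequencing. The oxygen level is therefore uncertain.

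Mitosis distributes duplicated chromosomes to daughter cells. Cyclin-dependent kinase 1 with its cyclins drives entry, kinetochores attach chromosomes to spindle microtubules, the spindle checkpoint delays anaphase until attachment is complete, and the anaphase-promoting complex then triggers destruction of securin and cyclin B. Most of these genes are transcribed late in the cell cycle, when MYBL2 and FOXM1 act with the MuvB complex at a promoter element called CHR, often beside CCAAT boxes bound by NF-Y. In quiescent cells the same element is bound by the repressive DREAM complex, and dividing tumour lines express these genes at high levels.

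The promoters are shown first because these elements are common among them. Promoter windows from 250 bases before to 50 after the first start listed by RefSeq (GRCh38.p14) were given for 45 of the 52 genes. AURKA, BIRC5, BUB3, FOXM1, TPX2, TTK and UBE2C had no entry. CHR was searched as TTTGAA or TTCGAA, the CCAAT box as CCAAT, and E2F-like elements as TTTGGCGC, TTTCCCGC or TTTCGCGC, all on both strands. The 120 bases before the start are printed for 5 genes with CHR in that stretch and for 2 of the strongest decreases without it. Capitals mark CHR and CCAAT, read as TTCAAA and ATTGG where they lie on the other strand. In MKI67 the second CHR and a reverse CCAAT share 1 base. Of the printed bases, 26 in CDC20, 14 in KIF4A and 26 in SPC24 lie in exons of the same gene in the deposited annotation.
CDC20: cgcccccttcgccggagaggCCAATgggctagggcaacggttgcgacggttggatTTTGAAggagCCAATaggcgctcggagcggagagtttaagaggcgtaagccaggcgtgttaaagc
ESPL1: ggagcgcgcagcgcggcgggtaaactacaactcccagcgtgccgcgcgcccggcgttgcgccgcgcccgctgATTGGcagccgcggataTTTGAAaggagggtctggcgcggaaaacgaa
KIF4A: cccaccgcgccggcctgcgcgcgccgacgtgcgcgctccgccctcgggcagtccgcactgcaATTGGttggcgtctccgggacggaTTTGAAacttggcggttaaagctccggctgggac
KIF11: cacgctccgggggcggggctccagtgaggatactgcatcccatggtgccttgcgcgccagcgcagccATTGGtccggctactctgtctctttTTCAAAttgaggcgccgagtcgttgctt
MKI67: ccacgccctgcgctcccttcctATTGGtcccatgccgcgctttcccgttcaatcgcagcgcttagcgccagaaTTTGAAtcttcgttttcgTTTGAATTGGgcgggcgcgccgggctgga
SPC24: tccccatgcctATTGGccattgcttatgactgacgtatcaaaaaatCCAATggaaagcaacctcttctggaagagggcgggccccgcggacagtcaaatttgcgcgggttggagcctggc
NCAPH: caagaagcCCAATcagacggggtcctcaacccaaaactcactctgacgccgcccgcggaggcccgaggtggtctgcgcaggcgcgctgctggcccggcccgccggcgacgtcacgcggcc
These stretches are chr1:43358861-43358980 (plus strand) for CDC20, chr12:53268179-53268298 (plus) for ESPL1, chrX:70289984-70290103 (plus) for KIF4A and chr10:92593010-92593129 (plus) for KIF11. They are chr10:128126424-128126543 (minus) for MKI67, chr19:11155783-11155902 (minus) for SPC24 and chr2:96335646-96335765 (plus) for NCAPH. Counted from the start, CHR began at position -65 in CDC20, -31 in ESPL1, -34 in KIF4A, -28 in KIF11, and -47 and -29 in MKI67.

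A CHR was found in 35 of the 45 promoters (77.8%), against 10.5% of the 7990 promoters of tested genes and 16.6% of all 27305 promoters in the reference. It lay within 40 bases of the start in 28 (62.2%), against 2.67% of tested genes. A CCAAT box was found in 34 (75.6%), against 37.1% of tested genes, and 20 (44.4%) held at least 2, against 14.2%. CHR and CCAAT occurred together in 27 (60.0%), against 4.63%. E2F-like elements were in 4 (8.89%), against 4.88%. In the promoters of 33 DNA replication genes, which are transcribed earlier in the cycle, CHR was found in 2 (6.06%) and an E2F-like element in 18 (54.5%). A match is a description of letters and does not show that a factor binds.

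**Figure D1:**
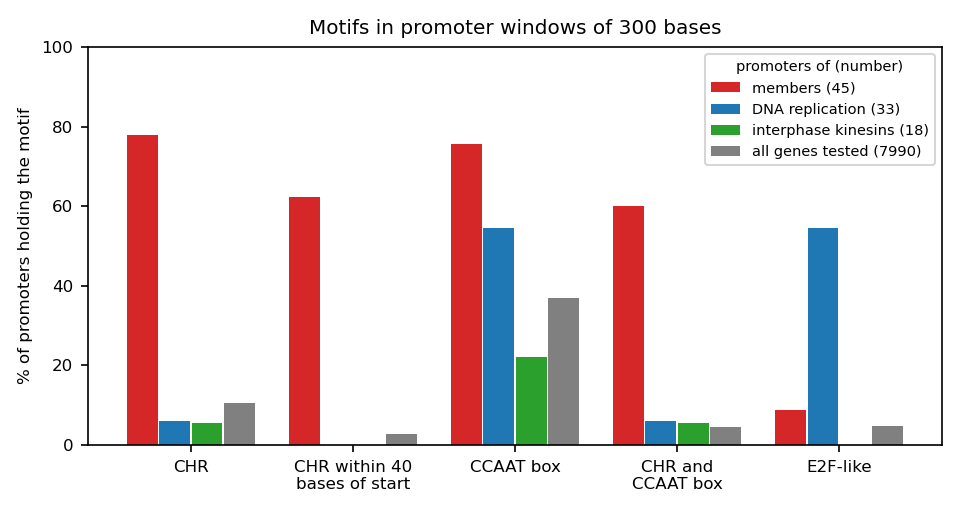
Bars give the percentage of promoter windows of 300 bases that hold each motif, for the mitosis genes, DNA replication genes, kinesins that act in interphase and all tested genes, with the number of promoters in the legend. CHR was in 77.8% of the mitosis gene promoters and 6.06% of the DNA replication promoters, and E2F-like elements were in 8.89% and 54.5%.

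VIRMA (listed as KIAA1429, chromosome 8, 94487693 to 94553529) rose from 710 and 682 counts in control libraries to 3437 and 3460 with VIRMA overexpression (log2 fold change 2.29, SE 0.0685, adjusted p 9.74e-26 by edgeR). This matches the labels, although counts do not separate the introduced gene from the cells' own. VIRMA passed the filter on low levels only through the VIRMA-overexpressing libraries, at 3.76 and 3.88 RPKM against 0.80 and 0.76 in the controls. Libraries held 81446932 to 86375474 counts. The 7 breast epithelial and HER2 markers summed to 26077 to 26516 CPM in the controls and 23580 to 23752 in the VIRMA-overexpressing libraries, with CDH1 at 5 to 33 counts, close to absent. The others did not move together. By log2 fold change KRT8 (-0.51), EPCAM (-0.39) and KRT19 (-0.12) fell, GRB7 (0.43) and KRT18 (0.075) rose, and ERBB2 was level (-0.0011). Markers of other cell types were low: 8 genes summed to 16.4 to 18.2 CPM against 11.1 to 12.1, and 0 of the 8 were at 0 in all libraries. Most of that sum was the collagen gene COL1A1, at 1119 and 1092 counts against 713 and 741. The leukocyte markers moved in opposite directions, PTPRC from 23 and 13 to 3 and 0 counts and CD3E from 73 and 60 to 87 and 90. The 4 red cell markers summed to 20.3 to 28.0 CPM in the controls and 0.326 to 0.484 in the VIRMA-overexpressing libraries, and HBB was at 0 counts in both of the latter. Most of the red cell marker sum in the eGFP control libraries was HBB, at 2137 and 1543 counts. HBA1 stood there at 63 and 71 counts, HBA2 at 63 and 45 and ALAS2 at 44 and 22. Whether the RNA of these markers came from red cells was not tested, nor was its part in the results.

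The mitosis genes were lower as a body in VIRMA-overexpressing cells. Together they took 0.322% and 0.321% of all counts in control libraries and 0.202% and 0.199% with VIRMA overexpression. Their summed level was 3333 and 3340 CPM (counts scaled to library size after TMM normalization) against 1980 and 1962 CPM. All 50 tested genes had a negative log2 fold change, with a median of -0.80 and a range of -1.44 to -0.13, beside a median of 0.01 over all 12205 genes. At an adjusted p below 0.05, 49 of 50 (98.0%) fell, against 35.9% of all genes tested, and 0 rose, against 35.1%. Past the fold threshold as well, a log2 fold change below -1, 13 of 50 (26.0%) fell, against 2.93% of all genes, and 0 rose, against 4.52%. DESeq2 and limma-voom also found 49 lower and 0 higher, and no gene had a positive estimate at any unadjusted p. In 50 of 50 both VIRMA-overexpressing libraries lay below both controls, against 41.6% of all genes. In bulk RNA a smaller share of cells in mitosis and less of these RNAs per cell cannot be told apart.

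The median tested gene stood at 57.4% of its control level, and levels ranged from 36.9% for SPC25 to 91.7% for CENPE. Between 0.5 and 1 lower on the log2 scale lay 25 genes, and less than 0.5 lower lay 12. Replicates of these genes were close, with a median absolute log2 difference of 0.044 in the control pair and 0.052 in the VIRMA-overexpressing pair. The genes nearest the fold threshold were ANLN (-1.04) and CDC20 (-1.03) inside it, and AURKA (-0.99) and ESPL1 (-0.98) outside it. The count of 13 depends on scaling: it was 10 with upper-quartile factors and 8 with library totals in place of TMM. A stricter question, whether the change itself exceeded 2-fold, was passed by 6 genes. KIF14 and KIF15 passed the level filter only through the controls.

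**Figure D2:**
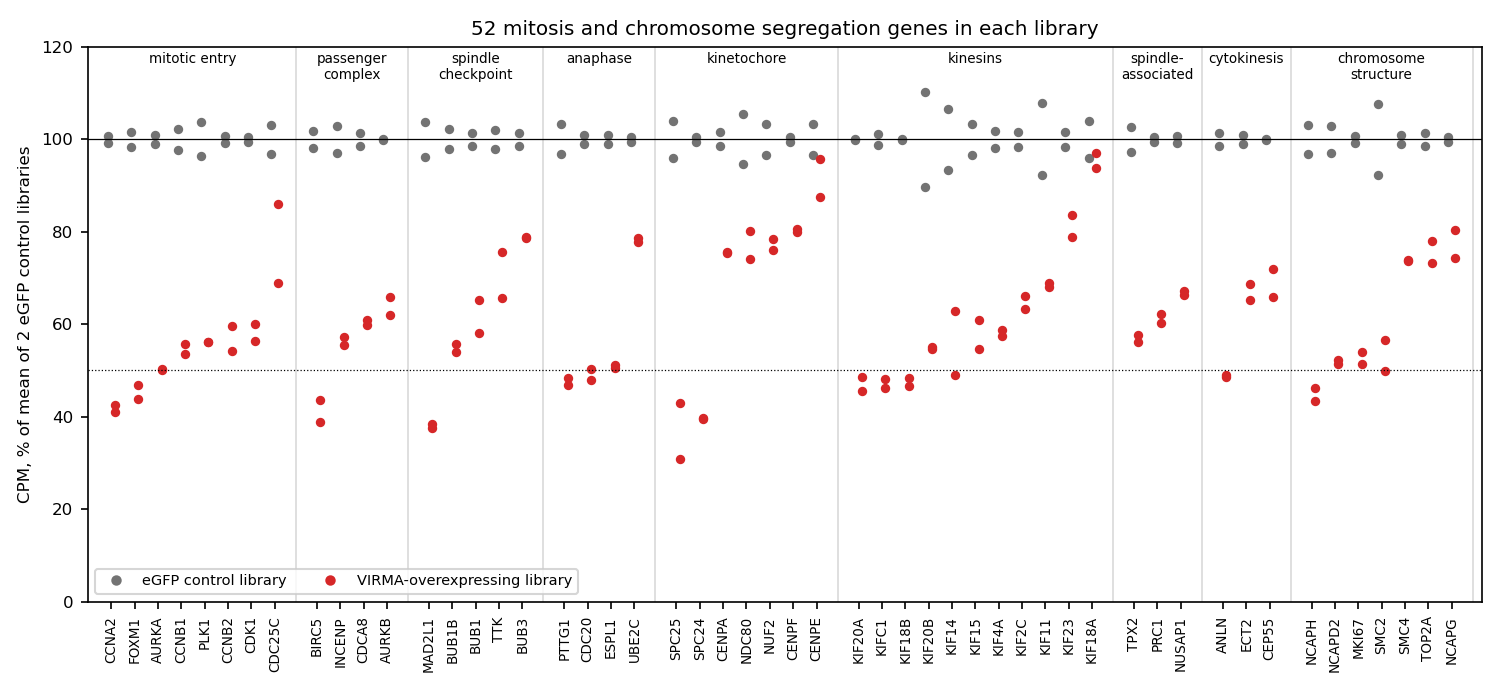
Each point is 1 library's CPM as a percentage of the mean of the 2 eGFP control libraries, for all 52 genes grouped by role and ordered within a role by their VIRMA-overexpressing level, with grey for controls and red for VIRMA-overexpressing libraries. Red points lie below grey points for every gene but KIF18A, whose groups overlap, and the dotted line marks 50% of control.

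The regulators of mitotic entry all fell, with 2 of 8 past both thresholds and a median of -0.85. CCNA2, cyclin A2, which activates CDK1 and CDK2 before mitosis (chromosome 4, 121816444 to 121823933), had 37.3 and 36.7 CPM in control libraries and 15.2 and 15.7 with VIRMA overexpression. Its log2 fold change was -1.26 (SE 0.0631, adjusted p 3.58e-19). FOXM1, the transcription factor of late cell cycle genes, stood at 70.6 and 68.4 CPM against 32.5 and 30.4 (-1.14), and 15.9% of its exonic bases lie in ITFG2 on the other strand. AURKA, the centrosomal kinase of spindle assembly, had 185.5 and 189.1 CPM against 94.0 and 94.3. Its decrease of 0.99 on the log2 scale (SE 0.0340, adjusted p 5.19e-24) stopped just short of 2-fold.

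The kinase at the centre of mitotic entry moved less than cyclin A2. CDK1 had 123.1 and 124.5 CPM in control libraries and 74.4 and 69.8 with VIRMA overexpression (-0.78). Its B-type cyclins CCNB1 (-0.87) and CCNB2 (-0.81) and the kinase PLK1 (-0.83) fell by like amounts, each well clear of the replicate spread. For PLK1, 12.9% of exonic bases lie in other genes on the opposite strand. CDC25C, the phosphatase that removes inhibitory phosphates from CDK1, changed least in this group, at 11.4 and 12.1 CPM against 10.1 and 8.09. Its log2 fold change was -0.37 (SE 0.102, adjusted p 0.00186), and without VIRMA-overexpressing replicate 2 it was -0.22 with an adjusted p of 0.104.

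In the chromosomal passenger complex, which corrects faulty attachments and guides cytokinesis, 4 of 4 genes fell and BIRC5 alone passed both thresholds. BIRC5, survivin, which anchors the complex at centromeres (chromosome 17, 78214186 to 78225636), had 112.5 and 116.8 CPM against 44.5 and 50.1, a log2 fold change of -1.28 (SE 0.0444, adjusted p 8.35e-24). AURKB, the complex's kinase, had 37.5 and 37.4 CPM against 24.7 and 23.2, a log2 fold change of -0.64 (SE 0.0585, adjusted p 4.59e-12). The scaffold INCENP (-0.83) and CDCA8, borealin (-0.73), lay between them. BIRC5 fell by 0.63 more than AURKB on the log2 scale. The ratio of their per-length levels was 1.76 and 1.83 in control libraries against 1.06 and 1.27 with VIRMA overexpression.

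All 5 spindle checkpoint genes fell, 1 of them past both thresholds. MAD2L1, the inhibitor that checkpoint signalling loads onto CDC20 (chromosome 4, 120055608 to 120067074), had 38.3 and 35.5 CPM in control libraries and 13.9 and 14.2 with VIRMA overexpression. It stood at 38.0% of control, a log2 fold change of -1.40 (SE 0.0655, adjusted p 5.48e-20). BUB3, which brings the BUB kinases to kinetochores, had 104.9 and 101.9 CPM against 81.3 and 81.5, a log2 fold change of -0.35 (SE 0.0373, adjusted p 3.22e-10). BUB1B, the checkpoint protein BubR1, was at -0.86, and 10.2% of its exonic bases lie in a readthrough gene on the same strand. The kinases BUB1 (-0.70) and TTK (-0.50) lay between.

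The anaphase group had the lowest median of the 9 roles, -1.0006, with 4 of 4 lower and 2 past both thresholds. PTTG1, securin, the inhibitor of separase (chromosome 5, 160421822 to 160428744), had 84.4 and 90.0 CPM against 40.9 and 42.1, a log2 fold change of -1.07 (SE 0.0435, adjusted p 8.14e-22). CDC20, the activator of the anaphase-promoting complex and target of MAD2L1, had 166.5 and 169.8 CPM against 80.6 and 84.6 (-1.03, SE 0.0359, adjusted p 9.98e-24). ESPL1, separase, the protease that cleaves cohesin, had 85.8 and 87.4 CPM against 44.4 and 43.7 (-0.98, SE 0.0414, adjusted p 2.95e-21). These 3 genes stood near 50% of control in both VIRMA-overexpressing libraries. UBE2C, the ubiquitin-conjugating enzyme of the complex, did not follow them: it had 213.1 and 215.4 CPM against 166.8 and 168.7, a log2 fold change of -0.35 (SE 0.0318, adjusted p 3.82e-12). A processed copy of CDC20, CDC20P1, had 55 to 203 counts, and reads shared with it cannot be told apart.

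The kinetochore genes split most widely. The median was -0.37, yet 2 of 7 were the strongest and the third strongest decreases of all 50. SPC25 (chromosome 2, 168834132 to 168913371) had 11.9 and 12.9 CPM in control libraries and 3.82 and 5.30 with VIRMA overexpression, a log2 fold change of -1.44 (SE 0.122, adjusted p 8.2e-13). Its partner SPC24 had 29.7 and 29.5 CPM against 11.7 and 11.7 (-1.34). These proteins form the inner end of the NDC80 complex, which couples chromosomes to microtubules. The subunits at the microtubule end fell far less: NDC80 was at -0.37 (adjusted p 0.00206) and NUF2 at -0.37 (adjusted p 7.79e-04).

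The other kinetochore genes were near the smaller value. The centromeric histone CENPA was at -0.40 and CENPF at -0.32. CENPE, the kinesin that carries chromosomes to the spindle equator (chromosome 4, 103105806 to 103198409), was the 1 tested gene whose difference did not pass. It had 14.6 and 13.6 CPM against 13.5 and 12.4, a log2 fold change of -0.13 (SE 0.085, adjusted p 0.187). Its libraries did not overlap between groups, but the gap between the nearest of them was small beside the gap within each group.

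**Figure D3:**
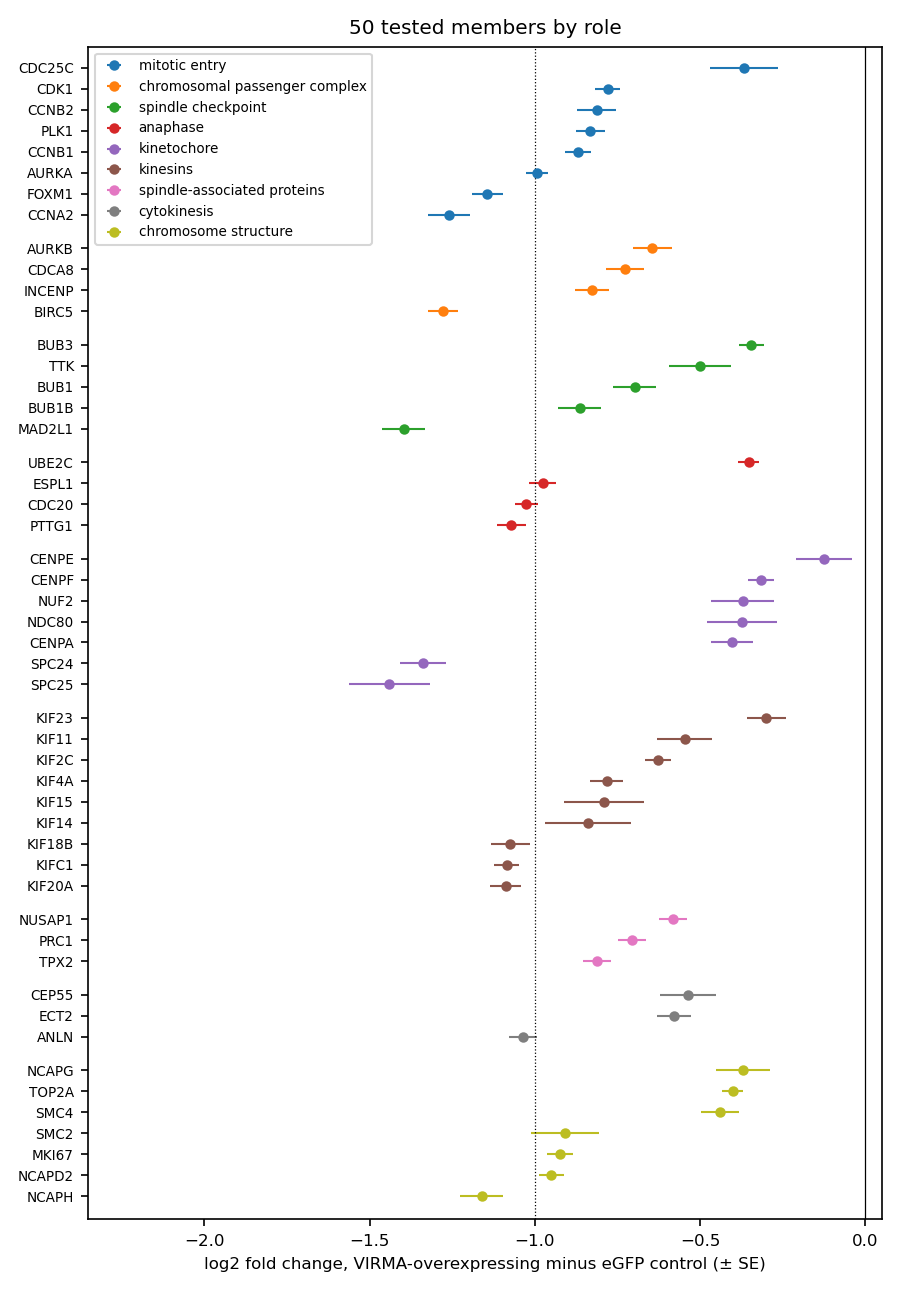
Log2 fold changes of the 50 tested genes with their standard errors, coloured and grouped by role, as VIRMA-overexpressing minus eGFP control, with the dotted line at the fold threshold of -1. SPC25, MAD2L1 and SPC24 lie farthest left and CENPE nearest 0.

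Of the 11 kinesins of the set, 9 were tested, 9 fell and 3 passed both thresholds (median -0.79). KIF20A, which carries the passenger complex to the spindle midzone (chromosome 5, 138178719 to 138187715), had 71.2 and 71.3 CPM against 32.4 and 34.6, a log2 fold change of -1.09 (SE 0.0464, adjusted p 3.39e-21). The minus-end motor KIFC1 (-1.09), which clusters extra centrosomes, and the microtubule depolymerase KIF18B (-1.07) fell by similar amounts, and 12.7% of the exonic bases of KIFC1 lie in a ribosomal protein pseudogene on the other strand. KIF23, the motor subunit of centralspindlin, had 32.9 and 31.8 CPM against 27.0 and 25.5, a log2 fold change of -0.30 (SE 0.0598, adjusted p 3.59e-05).

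The remaining tested motors lay between these values. They were KIF14 (-0.84), KIF15 (-0.79), the chromokinesin KIF4A (-0.78), the depolymerase KIF2C (-0.63) and the spindle-pole-separating motor KIF11 (-0.55). KIF18A and KIF20B did not reach 1 RPKM in 2 libraries. KIF18A had 346 and 377 control counts against 360 and 340, which overlap, and without the filter its log2 fold change was -0.10 (adjusted p 0.718). KIF20B had 501 and 619 counts against 317 and 306, and without the filter it was at -0.90 (adjusted p 7.05e-10).

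The spindle-associated proteins fell in 3 of 3 cases, 0 of them past both thresholds. TPX2, the activator of AURKA on spindle microtubules, had 86.3 and 91.0 CPM against 49.8 and 51.1, a log2 fold change of -0.81 (SE 0.0415, adjusted p 6.45e-19). NUSAP1, a microtubule-bundling protein, had 71.8 and 72.9 CPM against 48.0 and 48.6, a log2 fold change of -0.58 (SE 0.0423, adjusted p 1.22e-14). The midzone crosslinker PRC1 was at -0.71.

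The cytokinesis factors also fell in 3 of 3 cases, 1 past both thresholds. ANLN, anillin, the scaffold of the contractile ring (chromosome 7, 36389806 to 36453791), had 82.8 and 80.3 CPM against 39.6 and 39.98, a log2 fold change of -1.04 (SE 0.0429, adjusted p 1.4e-21). CEP55, which recruits the abscission machinery to the midbody, had 15.9 and 16.0 CPM against 11.5 and 10.5, a log2 fold change of -0.54 (SE 0.0847, adjusted p 8.47e-07). ECT2, the exchange factor that activates RhoA at the division plane, was at -0.58.

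Among 7 genes of chromosome structure, 7 fell, 1 past both thresholds (median -0.91). NCAPH, the kleisin that closes the condensin I ring (chromosome 2, 96335787 to 96373845), had 36.6 and 34.3 CPM against 15.4 and 16.4, a log2 fold change of -1.16 (SE 0.0650, adjusted p 8.67e-18). NCAPG, a condensin I subunit that binds DNA, had 15.9 and 15.7 CPM against 12.7 and 11.8, a log2 fold change of -0.37 (SE 0.0825, adjusted p 1.62e-04). For NCAPG, 33.1% of exonic bases lie in LCORL on the other strand, and whether counting used strand is not stated. The remaining condensin I subunit, NCAPD2, was at -0.95, with the ATPases SMC2 at -0.91 and SMC4 at -0.44. For SMC4, 25.6% of exonic bases lie in IFT80 or TRIM59 on the other strand. MKI67, the Ki-67 protein that coats mitotic chromosomes and serves as the usual proliferation marker, had 117.7 and 119.4 CPM against 64.1 and 61.0 (-0.92). The paper reports more proliferation and colony formation of SKBR3 cells with full-length VIRMA, measured by growth assays and not by RNA level. It also reports more Ki-67 protein staining with full-length VIRMA, in xenograft tumours of another breast cancer line. TOP2A, which untangles sister chromatids, was at -0.40.

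Pairs of genes were compared by the ratio of their RPKM values, which are per length, in each library. Some pairs are partners within a complex, and others, such as CCNB1 and CCNB2, are related genes or genes of the same process. SPC25 stood at 2.20 and 2.66 times NDC80 in control libraries and at 1.01 and 1.29 times in the VIRMA-overexpressing libraries. NUF2 stood at 1.24 and 1.29 times NDC80 against 1.34 and 1.20 times, which overlap. So within the NDC80 complex the groups were apart for SPC25 against NDC80 and overlapped for NUF2. The NCAPH to NCAPG ratio was 3.45 and 3.28 against 1.81 and 2.09, and the MAD2L1 to BUB3 ratio was 0.528 and 0.503 against 0.247 and 0.251. CDC20 stood at 0.493 and 0.498 times UBE2C against 0.305 and 0.316 times. The CCNB1 to CCNB2 ratio overlapped, at 3.34 and 3.45 against 3.49 and 3.06. In all, 19 pairs were compared, chosen after their values were seen, so the ratios are descriptions. A pair without overlap has an exact two-sided permutation p of 0.33 (0.396 after Benjamini-Hochberg adjustment over the 19), the smallest that 2 against 2 libraries allow, and no pair could pass a threshold.

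**Figure D4:**
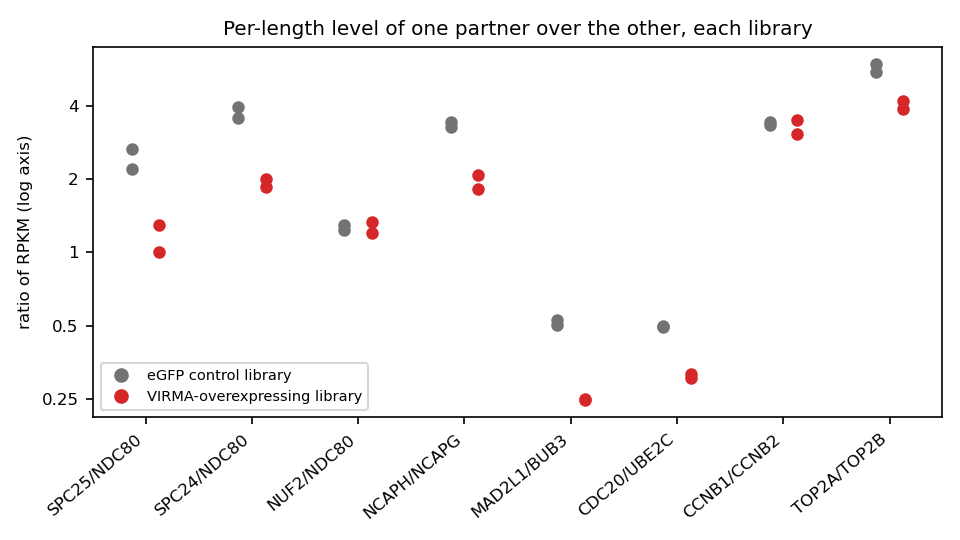
Ratio of RPKM between 8 pairs of genes in each library on a log axis, grey for eGFP control and red for VIRMA-overexpressing. Red points lie below grey points for 6 of the pairs, and the groups overlap for NUF2/NDC80 and CCNB1/CCNB2.

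Decrease and promoter elements were set side by side for the 43 tested genes with a promoter entry. The median log2 fold change was -0.78 for 33 genes with CHR and -0.97 for 10 without it. It was -0.83 for 32 genes with a CCAAT box and -0.44 for 11 without. Members without CHR in the window were CCNA2, SPC24, PTTG1, KIF20A and NCAPH, all past both thresholds. The others without it were CCNB1, CDC25C, AURKB, KIF2C and CENPE, none of them past both. These classes rest on the first listed start and the letters searched, so a CHR elsewhere or in other letters is missed. With any listed start, 36 of the 45 promoters held a CHR. Across the 50 tested genes the log2 fold change had a Spearman correlation of 0.20 with exonic length and -0.26 with mean level, beside 0.076 and -0.30 over all genes tested. These are correlations across genes, which share the same 4 libraries.

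Related genes outside the set were read from lists of the same pathway. Of 29 tested genes of the inner centromere and outer kinetochore, 25 fell and 1 rose at the adjusted p (median -0.54), and 4 fell and 1 rose past both thresholds. CENPW, a histone-fold protein of the inner centromere, fell from 22.4 and 24.0 to 8.09 and 9.47 CPM (-1.40). MIS12, the linker between centromere and NDC80 complex, went the other way, from 8.67 and 8.14 to 18.3 and 15.4 CPM (log2 fold change 1.01, adjusted p 7.62e-12). Its value lies at the threshold, between 0.88 and 1.13 over all alternatives. Of 30 other mitotic kinases and spindle proteins, 27 fell and 2 rose (median -0.67), with 5 lower past both thresholds. The phosphatase CDC25A fell by 1.49 on the log2 scale, while the spindle-pole protein NUMA1 (0.36) and WEE1 (0.24), the kinase that restrains CDK1, rose.

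The machinery that these genes work with, but which is also used outside mitosis, was nearer the median of all genes, of which 35.9% fell and 35.1% rose at the adjusted p. Of 17 genes of the anaphase-promoting complex list, 9 (52.9%) fell and 4 (23.5%) rose (median -0.16), 0 past both thresholds by edgeR. Its inhibitor FBXO5 was lowest (-0.97), followed by UBE2S (-0.89), and the subunits CDC16 (0.46) and ANAPC16 (0.35) rose. Of 13 tested cohesin genes, 4 (30.8%) fell and 5 (38.5%) rose, close to the shares over all genes (median 0.04), with CDCA5, sororin, the regulator that protects cohesin during replication and until mitosis, at -1.32. Of 17 kinesins and light chains that act in interphase, 4 (23.5%) fell and 7 (41.2%) rose (median 0.04), and 1, KIF26A, fell past both thresholds (-1.16). Of 12 paralogs of the mitotic proteins, 3 fell and 3 rose, each a smaller share than over all genes (median 0.02). CDC25B (-0.24), which fell, is in this list and in that of the other mitotic kinases and spindle proteins. Among these were CDK2 (-1.32), the paralog of CDK1, and BIRC2 (0.90), a relative of BIRC5. The medians near 0 changed sign under other filters for the cohesin and interphase kinesin lists, and without eGFP control replicate 2 for the paralogs.

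**Figure D5:**
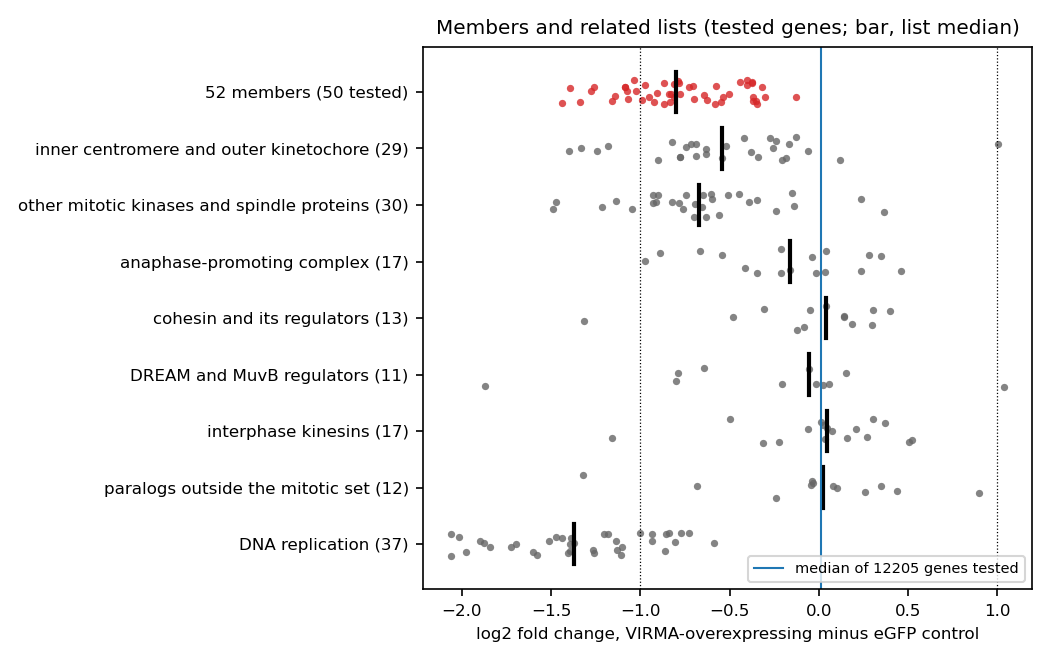
Each point is 1 tested gene's log2 fold change, VIRMA-overexpressing minus eGFP control, in the mitosis set (red) and 8 related lists (grey, number tested in brackets), with vertical scatter only for legibility. Black bars mark list medians, the blue line the median of all 12205 tested genes and dotted lines the fold thresholds. The mitosis set lies wholly below 0, with a median of -0.80, and the DNA replication list is lower still, at -1.37.

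The genes of the DREAM and MuvB list changed in both directions. MYBL2, the activator that replaces the repressors on MuvB, had 284.6 and 289.7 CPM in control libraries and 76.9 and 80.4 with VIRMA overexpression, a log2 fold change of -1.87 (SE 0.0342, adjusted p 3.69e-32). RBL2, the pocket protein p130 of the repressive DREAM complex, had 26.4 and 27.2 CPM against 57.0 and 53.2, a log2 fold change of 1.04 (SE 0.0519, adjusted p 3.36e-19). The related pocket protein RBL1 (-0.79), the DREAM subunits TFDP1 (-0.80) and E2F4 (-0.21) and the MuvB subunit LIN9 (-0.64) fell. LIN54, also of MuvB, was at 0.02 and did not pass the adjusted p. Over the 11 tested genes of that list, 5 (45.5%) fell at the adjusted p, against 35.9% of all genes, and 1 (9.09%) rose, against 35.1%. The list median was -0.06, which turned positive with library totals or upper-quartile factors. The DNA replication list, read for comparison, fell in 37 of 37 tested genes, 28 of them past both thresholds (75.7%), with a median of -1.37. Of these, MCM10 and GINS4 passed the level filter only through the controls, where they are high. Its strongest decrease was RRM2, a subunit of ribonucleotide reductase, from 193.6 and 192.7 to 48.0 and 44.6 CPM (-2.06). The difference between that list and the mitosis genes was not tested.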

How the data were processed

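RNA sequencing of SKBR3 cells was analysed in 2 eGFP control and 2 VIRMA-overexpressing libraries. The authors trimmed reads with Trimmomatic 0.39, aligned them to hg38 with STAR 2.5.2a and used featureCounts, per the submitters' processing notes. What the authors deposited are raw counts, with exon coordinates and lengths of each gene. Whether counting used strand, and how multiply aligned reads were treated, is not given in the sources used here. The 2 columns whose names do not spell out their group were taken to be the VIRMA-overexpressing libraries, since the other 2 name the control.

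RPKM was computed from counts and exonic lengths, and genes above 1 RPKM in at least 2 libraries were tested with edgeR 4.0.16 (quasi-likelihood test, TMM, R 4.3.3), with Benjamini-Hochberg adjustment over all 12205 genes. Both thresholds together mean a log2 fold change beyond 1 or -1 at an adjusted p below 0.05. CPM is the count scaled to TMM-adjusted library size. An SE of the log2 fold change was derived from the quasi-likelihood test, as the absolute log2 fold change divided by the square root of the F statistic. With 2 libraries against 2, an exact permutation test of 1 gene cannot go below 0.33, so the tests rest on spread shared across genes. The methods call the libraries biological duplicates, and p-values measure the spread between these libraries. In both groups replicates differed by more than sampling noise (chi-square per degree of freedom 6.01 and 4.98). On simulated counts for 12205 genes, 49 of 50 genes lowered by 1 on the log2 scale and 50 of 50 lowered by 1.5 were called at the adjusted p, with 9 of 12005 unchanged genes. Every simulated gene had the same spread, and few genes were changed, equally up and down. In the data 35.9% of genes fell and 35.1% rose at the adjusted p, so the simulated rates need not hold there.

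The genes, roles and lists were chosen with earlier results of these data known. Genes given in full are those with the largest and smallest change in each role and those nearest a log2 fold change of -1. Of each other list, the strongest called gene and up to 3 called in the minority direction were eligible, and other genes named were chosen after their values were seen. Promoter sequences are RefSeq's. Alternatives were DESeq2 1.42.0, limma-voom (limma 3.58.1), other scalings, filters and thresholds, a replicate block, and leaving out each library. No set test was run.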

Additional observations from a re-analysis of the deposited data

How the results depend on the processing

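Under the other scalings, filters and tools, the replicate block and the removal of single libraries, all 50 tested mitosis genes kept their direction, and all but CDC25C kept their side of the adjusted p threshold. CDC25C did not pass without VIRMA-overexpressing replicate 2 (log2 fold change -0.22). The count past both thresholds, 13, was 13 with RLE factors, 10 with upper-quartile factors, 8 with library totals, 15 under each of the 3 other filters, and 13 to 14 without single libraries. Tested against 2-fold, which asks a stricter question, 6 genes passed and the rest of the 49 lost their call. The median log2 fold change, -0.80, was -0.73 with upper-quartile factors, -0.72 with library totals, -0.85 with filterByExpr, -0.84 with no filter, -0.83 with at least 10 counts in every library, and -0.81 to -0.77 without single libraries. Relative to TMM, upper-quartile factors moved the median of all genes by 0.072 and library totals by 0.086, so these shifts belong to all genes. Small list medians changed sign: cohesin -0.095 with filterByExpr, -0.086 with no filter and -0.081 with at least 10 counts, interphase kinesins -0.015 with filterByExpr and -0.0013 with no filter, DREAM and MuvB regulators 0.017 with upper-quartile factors and 0.030 with library totals, and paralogs -0.0083 without eGFP control replicate 2, within a range of -0.0083 to 0.083 without single libraries. The cause of these changes was not tested. The replicate numbers did not pair the libraries (correlation of same-numbered deviations 0.0753). Fitted with a replicate block, 13 genes were past both thresholds, 49 lower and 0 higher at the adjusted p, the median was -0.80 and VIRMA was at 2.29. Without the filter, KIF20B joined the lower genes, making 50, and KIF18A did not pass. The widest errors among the tested genes were those of KIF14 (SE 0.130) and SPC25 (SE 0.122), which had few counts.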
